A study of Mus musculus with 24 samples.

Results

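The hypoxia response genes described here are 10 genes of the hypoxia-inducible factor (HIF) pathway: the factor subunit Hif1a, the oxygen sensors Egln1 and Egln3, and the targets Vegfa, Slc2a1, Ddit4, Ndrg1, P4ha1, Higd1a and Pgk1. They were taken by name from a list of HIF pathway genes outside lipid metabolism, and all 10 were present among the 14693 genes of the deposited count table. Each of the 10 also passed the filter on low counts, which 12994 genes passed, with 105 to 7777 counts per library.

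HIF is a transcription factor made of an oxygen-regulated alpha subunit and a constant beta subunit. In oxygenated cells the EGLN enzymes hydroxylate the alpha subunit, the von Hippel-Lindau protein then marks it for breakdown, and when oxygen falls the subunit escapes this and switches on genes for glucose uptake, glycolysis, vessel growth and collagen processing. The main control lies in protein stability, which transcript counts do not measure, and the targets also answer to other inputs such as nutrient stress and differentiation. In skeletal muscle the pathway is known for setting the balance between glycolysis and mitochondrial respiration.

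The cells were C2C12, an established wild-type mouse myoblast line that forms myotubes in culture once serum is lowered. All groups were grown in 10% fetal bovine serum and then shifted to 2% horse serum to differentiate. During differentiation they were given vehicle, 100 µM linoleic acid (LA, the 18:2n6 fatty acid) carried on bovine serum albumin, or recombinant mouse ANGPTL4 protein at 10 ng/mL, and RNA was taken at day 2 or day 6. The 6 groups (vehicle, LA and ANGPTL4 at each day) had 4 libraries each. Nothing in the labels gives an oxygen level, so no group is labelled as a hypoxia treatment. The labels do not say whether the 4 libraries of a group came from separate cultures, so p-values measure the spread between these libraries, which may be technical. The title of the series puts ANGPTL4 and Wnt signalling at the centre of the study. The comparisons below ask how the hypoxia response genes behaved under each treatment and over time.

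Library totals ranged from 6.101 to 25.05 M counts, the 10 genes were counted in every library, and no pair of libraries within a group differed by so little that they could be a duplicate deposit. Angptl4, the transcript that LA is known to induce, served as a check of the LA label: its mean rose from 20.2 to 81.7 CPM (counts divided by the scaled library total in M) at day 2 and from 20.8 to 285 CPM at day 6. All 15 skeletal muscle markers were present, and in the table analysed here 0 of 6 adipocyte markers, 3 of 7 endothelial markers and 3 of 6 macrophage markers were found. The endothelial markers found summed to at most 3.53 CPM in any library, and the macrophage markers to at most 4.29 CPM. Levels are given in CPM, which are comparable between libraries but not between genes. A log2 fold change is written log2FC with its standard error (SE), adjusted p is from edgeR's quasi-likelihood test over all 12994 genes, and a gene is said to have risen or fallen where adjusted p was below 0.05.

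Promoters of 6 members with calls under LA are shown here because they carry the letters of the HIF core site. Of the 10 genes, 9 had a window from 250 bases before to 50 bases after the start in the RefSeq promoter table (build GRCm38.p6), and Ndrg1 was not matched. The core motif was searched as ACGTG or GCGTG on both strands, so that CACGT and CACGC in the printed strand also count, and matches may overlap. When any window of a gene counted, it occurred in 9 of 9 matched genes, against 12628 of 27025 genes (46.7%) counted the same way. Vegfa was among the 9 through only 1 of its 2 windows. By window, 43.8% of all 32851 held the motif, and 56.9% of those with a GC content of at least 50%. The windows of the members had a GC content of 54.7 to 86.0%. The 250 bases before the start are printed 5′ to 3′ on the strand of the gene, with the motif letters in capitals.
P4ha1, chr10:59323046-59323295, plus strand: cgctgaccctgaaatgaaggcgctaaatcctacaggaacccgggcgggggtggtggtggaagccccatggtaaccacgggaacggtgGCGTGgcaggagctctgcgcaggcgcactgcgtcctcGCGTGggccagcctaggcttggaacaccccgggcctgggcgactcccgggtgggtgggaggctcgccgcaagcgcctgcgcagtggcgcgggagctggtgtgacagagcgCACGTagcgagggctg
Hif1a, chr12:73907617-73907866, plus strand: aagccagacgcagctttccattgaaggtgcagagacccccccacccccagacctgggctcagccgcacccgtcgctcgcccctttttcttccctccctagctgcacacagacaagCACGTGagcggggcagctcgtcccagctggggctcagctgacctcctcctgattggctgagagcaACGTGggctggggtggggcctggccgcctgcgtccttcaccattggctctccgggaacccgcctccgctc
Egln3, chr12:54203875-54204124, minus strand: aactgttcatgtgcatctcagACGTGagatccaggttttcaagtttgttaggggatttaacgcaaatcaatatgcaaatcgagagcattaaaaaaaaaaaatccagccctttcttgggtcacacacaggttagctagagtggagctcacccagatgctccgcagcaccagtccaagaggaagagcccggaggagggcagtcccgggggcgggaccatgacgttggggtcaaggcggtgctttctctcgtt
Ddit4, chr10:59951771-59952020, minus strand: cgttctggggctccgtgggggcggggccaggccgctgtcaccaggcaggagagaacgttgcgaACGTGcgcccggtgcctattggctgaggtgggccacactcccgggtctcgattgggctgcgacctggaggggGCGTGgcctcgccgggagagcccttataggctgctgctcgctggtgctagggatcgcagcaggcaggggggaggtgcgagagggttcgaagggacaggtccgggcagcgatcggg
Higd1a, chr9:121857797-121858046, minus strand: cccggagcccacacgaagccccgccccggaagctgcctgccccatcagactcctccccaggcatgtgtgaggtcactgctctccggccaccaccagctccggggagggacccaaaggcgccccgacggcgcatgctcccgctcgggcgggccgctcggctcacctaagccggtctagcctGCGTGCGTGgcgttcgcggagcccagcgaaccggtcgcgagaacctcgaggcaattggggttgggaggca
Pgk1, chrX:106186850-106187099, plus strand: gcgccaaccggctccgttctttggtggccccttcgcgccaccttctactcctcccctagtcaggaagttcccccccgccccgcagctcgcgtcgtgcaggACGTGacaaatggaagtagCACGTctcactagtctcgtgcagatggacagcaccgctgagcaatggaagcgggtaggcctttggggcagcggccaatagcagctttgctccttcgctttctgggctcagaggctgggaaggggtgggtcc
Egln3 had 1 match in its window, at 229 bases before the start, while P4ha1 and Hif1a had 3 each. Pgk1 and Ddit4 had 2 each. Higd1a had 2, and 1 more lay 44 bases after the start, outside the bases shown. Of the windows not printed, Egln1 and Slc2a1 had 2 matches each. Vegfa had 0 matches in its first window (chr17:46032328-46032627, minus strand). Its 2 matches lay in the other window, downstream of the first (chr17:46025114-46025413). The matches describe letters in a window and were found in genes that rose, in one that fell and in genes without a call under LA.

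LA gave calls on different members at the 2 days. At day 2, 3 of 10 members rose with LA and 0 fell: Ddit4, Higd1a and Pgk1, a stress gene, a mitochondrial gene and a glycolytic gene. Over all genes, 15.1% were called at day 2 (8.27% higher and 6.82% lower). At day 6, 3 members rose (Hif1a, Ndrg1 and P4ha1) and 1 fell (Egln3), against 17.2% of all genes called (7.83% higher and 9.38% lower). Libraries of the groups did not overlap for 3 members at day 2 (Ddit4, Pgk1 and Egln1, beside 14.1% of all genes) and for 3 at day 6 (Hif1a, P4ha1 and Pgk1, beside 22.7%). No member was called at both days. The difference between the day 6 and day 2 effects of LA was itself called for 6 of 10 members (Hif1a, Egln1, Ndrg1 and P4ha1 with the higher effect at day 6, Ddit4 and Higd1a with the higher effect at day 2), against 19.7% of all genes (8.68% with the higher effect at day 6 and 11.0% with the higher effect at day 2). It was not called for Pgk1 (log2FC -0.42, SE 0.211, adjusted p = 0.169) or Egln3 (log2FC -0.19, SE 0.0944, adjusted p = 0.149). The median log2FC of the 10 members was -0.032 at day 2, beside 0.0054 over all genes, and 0.085 at day 6 beside -0.0096.

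**Figure D1:**
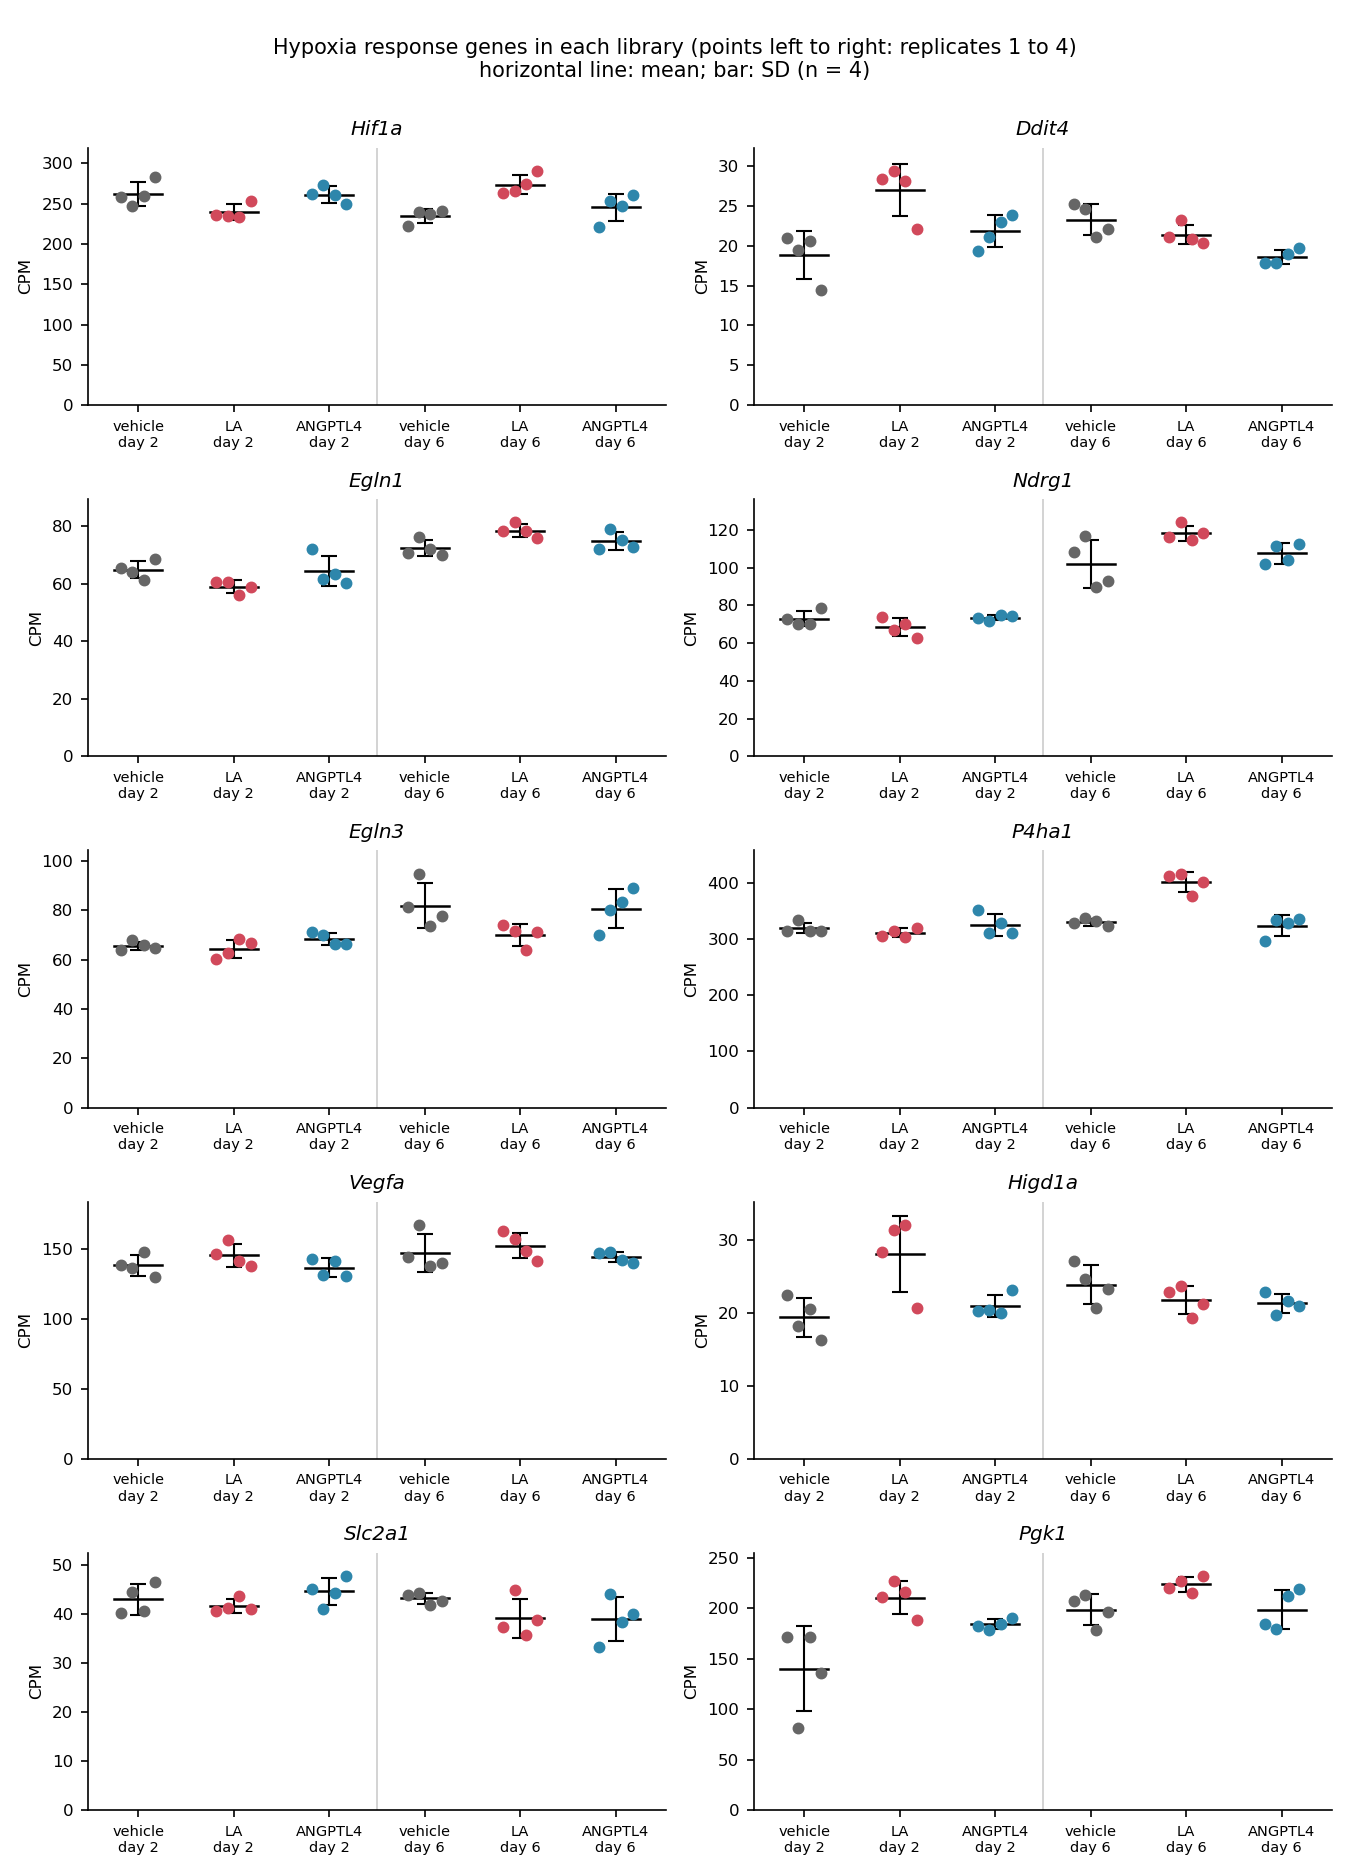
Level of each member in CPM (vertical axes, starting at 0) in the 24 libraries, by treatment and day (horizontal axes), where points are libraries, horizontal lines are means and bars are SD (n = 4). P4ha1 stands above all other groups with LA at day 6 (377 to 416 CPM), and 1 day 2 vehicle library of Pgk1 lies at 81.7 CPM.

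**Figure D2:**
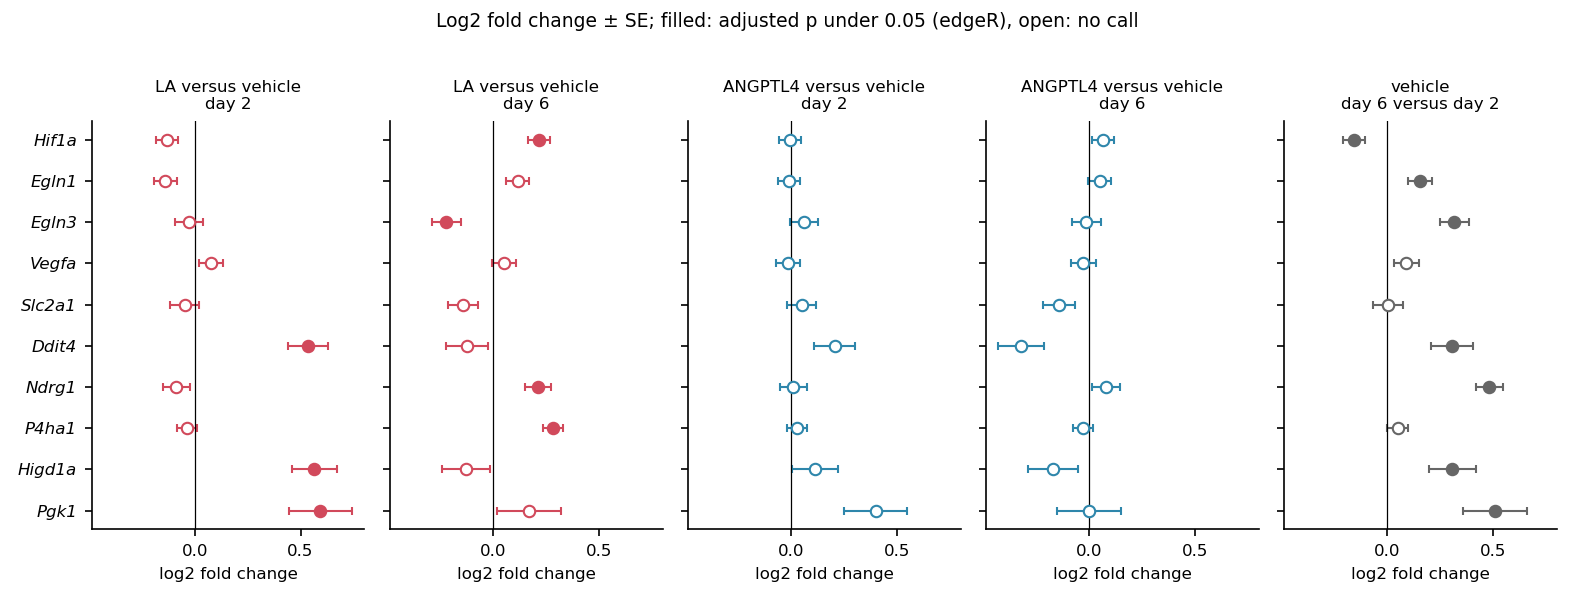
Log2 fold change ± SE of the 10 members (rows) in 5 comparisons (panels), with filled points where adjusted p was below 0.05. Filled points at day 2 with LA are Ddit4, Higd1a and Pgk1, those at day 6 are Hif1a, Egln3, Ndrg1 and P4ha1, and both ANGPTL4 panels hold open points only.

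Hif1a encodes the regulated alpha subunit. At day 6 its level was 222, 239.7, 237 and 240.4 CPM with vehicle and 264, 266, 274 and 290.4 CPM with LA. Every LA library lay above every vehicle library, and the means were 235 ± 8.58 and 274 ± 12.02 CPM (SD, n = 4 each). Hif1a thus rose with LA at day 6 (log2FC 0.22, SE 0.0517, adjusted p = 0.00236). At day 2 the order was the other way, at 258, 247, 259.9 and 283 CPM with vehicle and 236, 235, 234 and 254 CPM with LA, with the groups overlapping in the fourth LA library. That difference was not called (log2FC -0.13, SE 0.0512, adjusted p = 0.0823), although it passed with DESeq2 (adjusted p = 0.0431), without day 2 LA replicate 4 (adjusted p = 0.0316) and without day 2 vehicle replicate 2 (adjusted p = 0.0496). The effect of LA on Hif1a differed between the days by 0.35 on the log2 scale (SE 0.0727, adjusted p = 0.00106).

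Without treatment Hif1a went down with time. All 4 day 6 vehicle libraries lay below all 4 day 2 vehicle libraries, and Hif1a fell by 0.16 on the log2 scale (SE 0.0516, adjusted p = 0.0129). The call was lost without day 2 vehicle replicate 4, the highest of them (adjusted p = 0.0707). In vehicle 6 of 10 members rose from day 2 to day 6 and 1 fell, where 45.6% of all genes were called (25.2% higher and 20.5% lower). For 6 members the libraries of the 2 days did not overlap, beside 40.2% of all genes. The count of members called was 4 without day 2 vehicle replicate 4, and also 4 without day 6 vehicle replicate 1 or 2. The median over the 10 members was 0.23, and that over all genes 0.019. Between these days 9 of 15 muscle markers rose and 2 fell, and 7 of 8 fibroblast markers rose and 1 fell, and their part in the members' values was not tested. These are bulk libraries, so fewer cells of a type and less RNA per cell cannot be told apart.

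Egln1 encodes the prolyl hydroxylase PHD2, the main sensor that marks HIF alpha subunits in oxygenated cells. At day 2 it was at 65.5, 64.3, 61.4 and 68.6 CPM with vehicle and 60.7, 60.5, 56.0 and 58.8 CPM with LA, with each LA library below each vehicle library. The difference did not pass (log2FC -0.14, SE 0.0539, adjusted p = 0.0751), except without day 2 vehicle replicate 3 (adjusted p = 0.0493). At day 6 it was at 70.7, 76.4, 72.3 and 70.0 CPM with vehicle and 78.3, 81.3, 78.2 and 75.9 CPM with LA, higher in 15 of 16 pairs of libraries but again not called (log2FC 0.12, SE 0.0545, adjusted p = 0.149). Library totals in place of TMM factors gave a call there (adjusted p = 0.0476). The difference between the 2 LA effects was called for Egln1 (log2FC 0.26, SE 0.0766, adjusted p = 0.0171), and lost when all libraries were thinned to the smallest total (adjusted p = 0.0717). Egln1 means in vehicle were 64.9 ± 2.95 CPM at day 2 and 72.3 ± 2.83 CPM at day 6, a rise (log2FC 0.15, SE 0.0547, adjusted p = 0.0210), a call lost in 10 of 18 alternatives, with adjusted p from 0.0125 to 0.148.

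Egln3 encodes PHD3, a second hydroxylase of the family that HIF itself is known to induce. It was the only member that fell with LA at day 6, from 81.3, 94.9, 73.7 and 77.6 CPM with vehicle to 73.9, 71.4, 63.7 and 71.1 CPM. The groups touched, since the highest LA library lay just above the lowest vehicle library. The log2FC was -0.22 (SE 0.0673, adjusted p = 0.0208). This call depended on single libraries. It was lost without day 6 vehicle replicate 1 (adjusted p = 0.0607) or 2 (-0.13, adjusted p = 0.213), without day 6 LA replicate 2, 3 or 4 (adjusted p = 0.0538, 0.124 and 0.0536) and with library totals alone (adjusted p = 0.0549). In vehicle Egln3 rose with time, from 63.9, 67.8, 65.9 and 64.8 CPM at day 2 to the day 6 levels above (log2FC 0.32, SE 0.0671, adjusted p = 2.52e-04). All 4 day 6 vehicle libraries were above the day 2 vehicle libraries, and the call held under all 18 alternatives. With LA, day 6 libraries (63.7 to 73.9 CPM) overlapped the day 2 libraries (60.3 to 68.4 CPM), a comparison that was not tested. The difference between the 2 LA effects was not called for Egln3 (log2FC -0.19, SE 0.0944, adjusted p = 0.149). At day 2 LA gave no call on Egln3 (log2FC -0.027, SE 0.0663, adjusted p = 0.831). The fall of Egln3 at day 6 stood beside a rise of Hif1a and no call on Egln1.

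P4ha1 encodes the catalytic alpha subunit of collagen prolyl 4-hydroxylase, which stabilises the collagen triple helix and is a known HIF target. With vehicle at day 6 it was at 328, 338, 332 and 323 CPM, and with LA at 412, 416, 377 and 402 CPM. Each LA library lay above each of the other 20 libraries in the study. P4ha1 rose by a log2FC of 0.28 (SE 0.0478, adjusted p = 4.54e-05), and the call held under all 18 alternatives. At day 2 its means were 319 ± 9.25 CPM with vehicle and 311 ± 7.88 CPM with LA (log2FC -0.038, SE 0.0476, adjusted p = 0.640), and the LA effects of the days differed (log2FC 0.32, SE 0.0674, adjusted p = 0.00116). Vehicle libraries gave no call between days (log2FC 0.049, SE 0.0478, adjusted p = 0.420). Its relative P4ha3 also rose with LA at day 6, from 18.9 to 28.1 CPM (log2FC 0.58, adjusted p = 2.14e-05). Unlike P4ha1, P4ha3 fell with time in vehicle, from 28.5 to 18.9 CPM (log2FC -0.60, adjusted p = 2.56e-06).

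Ndrg1 encodes a cytoplasmic protein induced by hypoxia and by differentiation, with roles in membrane trafficking and growth control. Its day 2 vehicle libraries were at 72.8, 70.4, 70.0 and 78.8 CPM and its day 6 vehicle libraries at 108, 117, 89.8 and 93.1 CPM. Even the lowest day 6 library exceeded the highest day 2 library. Ndrg1 rose with time by a log2FC of 0.48 (SE 0.0644, adjusted p = 2.71e-07), and that call held under all 18 alternatives. LA at day 6 brought it to 116, 124, 115 and 118 CPM, a narrower range than vehicle that held only vehicle replicate 2 (117 CPM) and lay above the other vehicle libraries. This rise was called (log2FC 0.21, SE 0.0632, adjusted p = 0.0162) and was lost without day 6 vehicle replicate 3, the lowest vehicle library (adjusted p = 0.0974). With LA at day 2 the level was 68.4 ± 4.70 CPM beside 73.0 ± 4.06 CPM with vehicle, not called (log2FC -0.088, SE 0.0641, adjusted p = 0.379), and the 2 LA effects differed (log2FC 0.30, SE 0.0900, adjusted p = 0.0172). The relatives Ndrg2 and Ndrg4 also rose with time in vehicle (log2FC 1.46 and 0.89). With LA at day 6 they fell (log2FC -0.43 and -0.64, adjusted p = 0.0154 and 7.80e-08), where Ndrg1 rose.

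At day 6 the markers of muscle and of fibroblasts also moved with LA. Of 15 skeletal muscle markers 14 fell and 0 rose, and their summed level was 22776 to 26489 CPM with LA against 31495 to 36448 CPM with vehicle. Without Ttn, the marker not called, the sums were 14564 to 16231 and 20782 to 21317 CPM. Of 9 fibroblast markers, 8 were present and 4 of these rose and 0 fell, with sums of 12800 to 15338 CPM against 10694 to 12384 CPM. The part of these shifts in the values of Hif1a, Egln3, Ndrg1 and P4ha1 was not tested.

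Ddit4 encodes REDD1, an inhibitor of the growth kinase complex mTORC1 that hypoxia, energy stress and glucocorticoids are known to induce. At day 2 it was at 21.0, 19.5, 20.6 and 14.4 CPM with vehicle and 28.4, 29.4, 28.2 and 22.1 CPM with LA. The lowest LA library was above the highest vehicle library, and the means were 18.9 ± 3.03 and 27.0 ± 3.31 CPM. Ddit4 rose by a log2FC of 0.54 (SE 0.0938, adjusted p = 7.80e-04). The call held under all 18 alternatives, and thinning to the smallest total gave the smallest value, 0.33 (adjusted p = 0.0296). Thinning was a single random draw of counts, and the part of that draw in the values was not tested. At day 6 vehicle libraries were at 25.3, 24.6, 21.1 and 22.1 CPM and LA libraries at 21.2, 23.2, 20.8 and 20.4 CPM, overlapping and not called (log2FC -0.12, SE 0.0993, adjusted p = 0.464). The effects of LA at the 2 days differed by -0.66 on the log2 scale (adjusted p = 0.00106), or by -0.37 after thinning, where the call was lost (adjusted p = 0.0747). In vehicle Ddit4 rose with time (log2FC 0.31, SE 0.0996, adjusted p = 0.0126). This rise was lost after thinning (0.10, adjusted p = 0.439) and without day 2 vehicle replicate 4 (0.20, adjusted p = 0.0889), day 6 vehicle replicate 1 (adjusted p = 0.0768) or day 6 vehicle replicate 2 (adjusted p = 0.0557).

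Higd1a encodes a small protein of the inner mitochondrial membrane that HIF induces and that is known to support respiratory chain function under low oxygen. Its day 2 levels were 22.5, 18.3, 20.5 and 16.3 CPM with vehicle and 28.3, 31.4, 32.1 and 20.7 CPM with LA. The first 3 LA libraries were above all vehicle libraries, and the fourth was within their range. Higd1a rose (log2FC 0.57, SE 0.105, adjusted p = 0.00138), and the call held under all 18 alternatives. At day 6 it was at 27.2, 24.6, 20.6 and 23.2 CPM with vehicle and 22.9, 23.7, 19.4 and 21.2 CPM with LA (log2FC -0.13, SE 0.111, adjusted p = 0.503), and the effects of the 2 days differed by -0.69 on the log2 scale (adjusted p = 0.00214). In vehicle it rose with time (log2FC 0.31, SE 0.112, adjusted p = 0.0251). That call was lost with library totals alone (adjusted p = 0.0535) and without day 2 vehicle replicate 2 or 4 (adjusted p = 0.0873 and 0.104) or day 6 vehicle replicate 1 or 2 (adjusted p = 0.150 and 0.0713). Higd2a, a family member of the same membrane, rose with LA at day 2 too (log2FC 0.51, adjusted p = 0.00213).

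Pgk1 encodes phosphoglycerate kinase, an ATP-forming enzyme of glycolysis and a classic HIF target. At day 2 it was at 172, 81.7, 172 and 135 CPM with vehicle and 211, 226, 216 and 188 CPM with LA. All LA libraries were above all vehicle libraries, but the vehicle libraries were spread widely, with replicate 2 far below the others. The means were 140.1 ± 42.5 and 210.2 ± 16.3 CPM, and Pgk1 rose (log2FC 0.59, SE 0.150, adjusted p = 0.0131). Without day 2 vehicle replicate 2 the log2FC was 0.40 (adjusted p = 0.00261). The call was lost with only the compared groups in the fit (adjusted p = 0.187), without day 2 LA replicate 3 (adjusted p = 0.0514) and without that library and day 6 ANGPTL4 replicate 1 together (adjusted p = 0.0566). At day 6 it was at 207, 213, 178 and 196 CPM with vehicle and 220.4, 227, 215 and 232 CPM with LA, again with no overlap, yet not called (log2FC 0.17, SE 0.149, adjusted p = 0.505). A fit of those 2 groups alone, which leaves out the spread of the day 2 vehicle libraries, gave a call (adjusted p = 0.0112). With vehicle Pgk1 rose with time (log2FC 0.51, SE 0.151, adjusted p = 0.01001), by 0.30 without day 2 vehicle replicate 2 (adjusted p = 0.00259), and this call was lost in a fit of the compared groups alone (adjusted p = 0.154).

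The 3 genes that rose with LA at day 2 moved beside another feature of these libraries. Ribosomal protein genes (82 genes) held 1.80, 1.43, 1.67 and 1.76% of the counts with vehicle at day 2 and 2.37, 2.46, 2.76 and 1.75% with LA. The fourth LA library had the lowest of these LA shares, within the vehicle range, and it was also the lowest LA library for Ddit4, Higd1a and Pgk1. ANGPTL4 libraries at day 2 held 2.16, 1.91, 1.90 and 2.24%. Respiratory chain and ATP synthase genes (76 genes) held 0.68, 0.64, 0.64 and 0.63% with vehicle at day 2. With LA they held 0.78, 0.81, 0.90 and 0.67%, and with ANGPTL4 0.75, 0.72, 0.72 and 0.80%. Over all 24 libraries Ddit4 and Higd1a had a Pearson correlation of 0.862, and of 0.801 after each group's mean was removed, a description of libraries that share depth and composition. Of 15 skeletal muscle markers, 0 rose and 4 fell with LA at that day, and 1 rose and 3 fell with ANGPTL4. Their sum was 30273 to 35108 CPM with vehicle, 22712 to 30241 CPM with LA and 24166 to 24912 CPM with ANGPTL4, and much of it was Ttn, the giant sarcomere protein titin. Without Ttn, left out after the values were seen, the sums were 16513 to 18147, 15371 to 16683 and 15478 to 17734 CPM, which overlap. The part of these shares and of the muscle markers in the rise of the 3 genes, or in the other day 2 calls below, was not tested. Near-identical copies make the values of ribosomal protein genes uncertain.

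**Figure D3:**
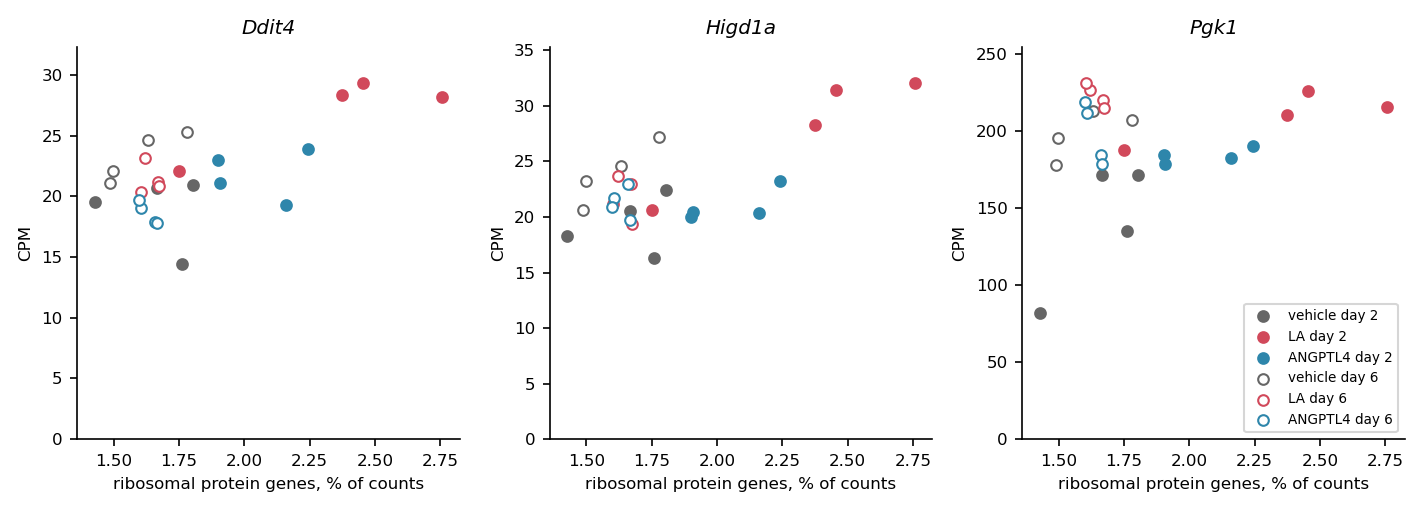
Level of Ddit4, Higd1a and Pgk1 in CPM (vertical axes, from 0) against the share of counts in 82 ribosomal protein genes (horizontal axes, %) in 24 libraries, filled at day 2 and open at day 6. Of the 4 day 2 LA libraries 3 lie at the right, at 2.37 to 2.76%, and the fourth lies at 1.75%, with 22.1 CPM of Ddit4 and 20.7 CPM of Higd1a.

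Vegfa and Slc2a1 were called in 0 of the 9 comparisons with edgeR and all counts. Vegfa encodes the main growth factor for blood vessels. Its vehicle libraries were at 139, 137, 148 and 129.9 CPM at day 2 and 144, 167, 138 and 140.1 CPM at day 6, and its LA libraries at 147, 157, 141 and 138 CPM and 163, 157, 149 and 142 CPM. The groups overlapped at both days (log2FC 0.076, SE 0.0570, adjusted p = 0.391 at day 2 and log2FC 0.053, SE 0.0578, adjusted p = 0.607 at day 6). Slc2a1 encodes GLUT1, the glucose transporter of most growing cells. It was at 40.2, 44.5, 40.6 and 46.6 CPM with vehicle and 40.6, 41.2, 43.7 and 41.0 CPM with LA at day 2 (log2FC -0.047, SE 0.0685, adjusted p = 0.697). At day 6 it was at 44.0, 44.3, 41.8 and 42.8 CPM and 37.3, 44.8, 35.7 and 38.8 CPM, with a wider spread among LA than vehicle libraries and no call (log2FC -0.14, SE 0.0721, adjusted p = 0.203). With every library thinned to the total of the smallest one, it passed, with a log2FC of -0.26 (adjusted p = 0.0258). Between days in vehicle the log2FC was 0.0037 for Slc2a1 and 0.091 for Vegfa, and the LA effects of the days differed by -0.093 for Slc2a1 and -0.024 for Vegfa on that scale. A p that misses the threshold does not show that the levels were equal. Slc2a1 overlaps an antisense gene, Gm12867, and the strand setting of the counting is not stated, so reads of the pair cannot be told apart. Hif1a, Ndrg1 and Higd1a also overlap opposite-strand genes that are not in the table. Hif1a further overlaps Gm49321, a protein-coding gene on its own strand, which is absent there too.

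With ANGPTL4 protein edgeR called 0 of 10 members at day 2, where it called 9.82% of all genes (3.86% higher and 5.96% lower). At an unadjusted p below 0.05 there were 2 members, Ddit4 and Pgk1, beside 3389 of the 12994 genes tested. Of the members limma-voom called 1 (Pgk1) and DESeq2 0. Pgk1 was at 183, 179, 185 and 190.3 CPM, with all libraries above the day 2 vehicle libraries, the 1 member so placed beside 14.6% of all genes (log2FC 0.40, SE 0.150, adjusted p = 0.0965). It passed without day 2 vehicle replicate 1 or 3 (adjusted p = 0.0463 and 0.04999), and without replicate 2, the low library, its log2FC was 0.20 (adjusted p = 0.106). Ddit4 was at 19.3, 21.1, 23.0 and 23.9 CPM, overlapping vehicle (log2FC 0.21, SE 0.0962, adjusted p = 0.167). The log2FC values of the other members were -0.0030 for Hif1a, -0.0086 for Egln1, 0.062 for Egln3, 0.029 for P4ha1, 0.010 for Ndrg1, 0.12 for Higd1a, -0.016 for Vegfa and 0.051 for Slc2a1, none of them called.

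At day 6 edgeR again called 0 of 10 members with ANGPTL4, and it called 3 genes in all (0.0231%, with 0.0154% higher and 0.00770% lower). DESeq2 called 0 members and 47 genes, and limma-voom 0 members and 2 genes. With edgeR 1 member had an unadjusted p below 0.05, beside 1513 of the 12994 genes tested. That member was Ddit4, at 17.8, 17.8, 19.0 and 19.7 CPM, where each library lay below each vehicle library (log2FC -0.32, SE 0.107, adjusted p = 0.208). Members whose libraries did not overlap between the groups numbered 1, beside 8.24% of all genes. P4ha1, which rose with LA at that day, was at 296, 334, 328 and 335 CPM with ANGPTL4 (log2FC -0.029, SE 0.0483, adjusted p = 0.856). Hif1a was at 221, 253, 247 and 260.2 CPM and Egln3 at 70.2, 80.0, 83.6 and 88.9 CPM, both overlapping vehicle (log2FC 0.065 and -0.014). Without a call as well, the log2FC was 0.050 for Egln1, -0.028 for Vegfa, -0.14 for Slc2a1, 0.079 for Ndrg1, -0.17 for Higd1a and 0.0015 for Pgk1. A difference of the ANGPTL4 effect between days was called for no member with edgeR (0 of 10, with 0.277% of all genes called, 0.0847% higher and 0.192% lower). The nearest was Ddit4 (log2FC -0.53, SE 0.144, adjusted p = 0.0675), the 1 member with an unadjusted p below 0.05, beside 2415 of 12994 genes. Ddit4 was also the 1 member called by DESeq2 (adjusted p = 0.0356), while limma-voom called 0. It also passed without day 2 ANGPTL4 replicate 1 (adjusted p = 0.0337) and without day 6 vehicle replicate 3 (adjusted p = 0.04996). Differences for the rest were 0.068 for Hif1a, 0.058 for Egln1, -0.077 for Egln3, -0.058 for P4ha1, 0.069 for Ndrg1, -0.29 for Higd1a, -0.40 for Pgk1, -0.012 for Vegfa and -0.19 for Slc2a1. The 36 genes called in all became 341 with DESeq2 and 312 without day 2 ANGPTL4 replicate 1, and 0 with the replicate block.

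LA and ANGPTL4 were also set against each other. These comparisons share libraries with those against vehicle, so their values are given side by side and are not independent. At day 6, 3 of 10 members differed, where 13.9% of all genes did (6.60% higher and 7.32% lower): P4ha1 (log2FC 0.31, SE 0.0482, adjusted p = 1.81e-05) and Hif1a (log2FC 0.16, SE 0.0522, adjusted p = 0.0412) were higher with LA, and Egln3 was lower (log2FC -0.21, SE 0.0691, adjusted p = 0.0420). P4ha1 held under all 18 alternatives. Hif1a lost its call without day 6 ANGPTL4 replicate 1 or 3 (adjusted p = 0.167 and 0.0651) and without day 6 LA replicate 3 or 4 (adjusted p = 0.0643 and 0.141). Without day 2 LA replicate 3 and day 6 ANGPTL4 replicate 1 its adjusted p was 0.146. Egln3 lost its call in 11 of 18 alternatives, with adjusted p from 0.00971 to 0.235. One member, P4ha1, was called without day 6 ANGPTL4 replicate 3 and without day 6 LA replicate 3 or 4. With Hif1a and P4ha1, Ndrg1 and Ddit4 made 4 members without overlap between LA and ANGPTL4 libraries at day 6, beside 19.2% of all genes, but those 2 were not called (log2FC 0.13 and 0.20, adjusted p = 0.180 and 0.249). The log2FC was 0.068 for Egln1, 0.080 for Vegfa, 0.0022 for Slc2a1, 0.043 for Higd1a and 0.17 for Pgk1, none called. A fit of the 2 groups alone called Ndrg1 and Pgk1 as well (adjusted p = 0.0432 and 0.0246).

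At day 2, edgeR called 0 of 10 members between LA and ANGPTL4 and 0.0924% of all genes (0.0616% higher and 0.0308% lower). The libraries overlapped for all 10 members, and did not for 5.03% of all genes. The count over all genes, 12, depended on single libraries, with 363 genes called without day 2 LA replicate 4, 159 without day 2 LA replicate 3 and 102 without day 2 ANGPTL4 replicate 4. At an unadjusted p below 0.05 there were 4 members (Ddit4, Egln1, Hif1a and Higd1a), beside 1607 of the 12994 genes tested. DESeq2 and limma-voom called 1 member each, Higd1a in both. Higd1a was at 20.3, 20.4, 20.04 and 23.2 CPM with ANGPTL4 and reached the largest difference (log2FC 0.45, SE 0.1001, adjusted p = 0.0609), followed by Ddit4 (log2FC 0.33, SE 0.0888, adjusted p = 0.104). Both passed without day 2 LA replicate 4 (adjusted p = 2.05e-04 and 0.00622), and Higd1a also passed without day 2 ANGPTL4 replicate 4 (adjusted p = 0.0271) and without day 2 LA replicate 3 and day 6 ANGPTL4 replicate 1 together (adjusted p = 0.0498). With all libraries in, the 3 genes that rose with LA against vehicle at day 2 were not separated by edgeR from their levels with ANGPTL4 at the same day. For Pgk1 the LA libraries (188 to 226 CPM) overlapped the ANGPTL4 libraries (179 to 190.3 CPM). The remaining log2FC values were -0.13 for Hif1a, -0.13 for Egln1, -0.089 for Egln3, -0.067 for P4ha1, -0.10 for Ndrg1, 0.092 for Vegfa, -0.10 for Slc2a1 and 0.19 for Pgk1.

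The rest of the oxygen-sensing machinery, 18 tested genes of 19 listed, held 4 calls with LA at day 2 (22.2%, beside 15.1% of all genes) and 2 at day 6 (11.1%, beside 17.2%). At day 2, 3 rose and 1 fell: Egln2 (log2FC 0.25), another EGLN hydroxylase, Eloc (0.39) and Rbx1 (0.20), parts of the ubiquitin ligase that removes HIF, and Ep300 (-0.22), a HIF coactivator. At day 6, 1 rose and 1 fell: Os9 (0.28), a protein reported to promote HIF breakdown, and Hif1an (-0.22, adjusted p = 0.00223), the asparaginyl hydroxylase that blocks coactivator binding. Medians were 0.044 at day 2 and -0.054 at day 6. The day 2 count ranged from 0 to 6 over the other settings and was 0 without day 2 LA replicate 3, and 2 without day 2 LA replicate 2 or day 2 vehicle replicate 4. Day 2 LA replicate 3 had the highest ribosomal protein share (2.76%), and the part of that share in these calls was not tested. In vehicle 4 rose and 1 fell with time, Hif1an most among those that rose (log2FC 0.36) and Crebbp the one that fell (-0.63). That is 27.8% called, beside 45.6% of all genes, and the count was 2 without day 6 vehicle replicate 2 and 3 without day 2 vehicle replicate 2 or 4 or day 6 vehicle replicate 4.

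Of 20 other glycolysis and lactate genes known as HIF targets, 3 rose and 0 fell with LA at day 2, and 6 rose and 2 fell at day 6. The day 2 share, 15.0%, was near the 15.1% of all genes, and that at day 6 was 40.0%, beside 17.2%. Over other settings the day 2 count was 1 to 5, and without day 6 vehicle replicate 3 the day 6 count was 5. The day 2 genes were Pgam1 (log2FC 0.56), Eno1 (0.38) and Pkm (0.20), enzymes of lower glycolysis. The other 17 genes of the list, Tpi1, Gapdh and Ldha among them, were not called at day 2. At day 6 Pdk1, a kinase that closes the entry of pyruvate into mitochondria, rose from 77.6 to 112 CPM (log2FC 0.53, adjusted p = 3.72e-05). The phosphofructokinase gene Pfkl and the regulator Pfkfb3 rose too (log2FC 0.48 and 0.35), while Hk2, the insulin-responsive hexokinase, and Gys1, muscle glycogen synthase, fell (log2FC -0.34 and -0.47). The median log2FC was 0.091 at day 2 and 0.096 at day 6. Near-identical copies make the values of Pgk1, Pgam1, Eno1 and Gapdh uncertain.

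Of 37 other HIF targets outside glycolysis, 14 rose and 3 fell with LA at day 6, which is 45.9% called, beside 17.2% of all genes, with a median log2FC of 0.16 beside -0.0096. Angptl4 led (log2FC 3.77), followed among genes of at least 5 CPM by the adenylate kinase Ak4 (0.73) and the carbonic anhydrase Car9 (0.55, adjusted p = 0.0267). The 3 that fell were the circadian repressor Bhlhe40 (-0.30) and, named after their values were seen and at under 5 CPM, Stc2 (-0.65) and Car12 (-0.87). At day 2, 5 rose and 1 fell (16.2%, beside 15.1% of all genes), with a median of 0.035, and the count was 10 without day 2 vehicle replicate 1. At that day Angptl4 (log2FC 2.01), the cytokine Mif (0.52) and the heme oxygenase Hmox1 (0.34) led those that rose. Angptl4 is also a known target of PPARs, receptors that bind fatty acids. In vehicle, 20 of the 37 rose and 4 fell with time, which is 64.9% called, beside 45.6% of all genes (25.2% higher and 20.5% lower). The median was 0.26 beside 0.019 over all genes, and Loxl2, a collagen cross-linking enzyme, rose the most (log2FC 1.29).

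**Figure D4:**
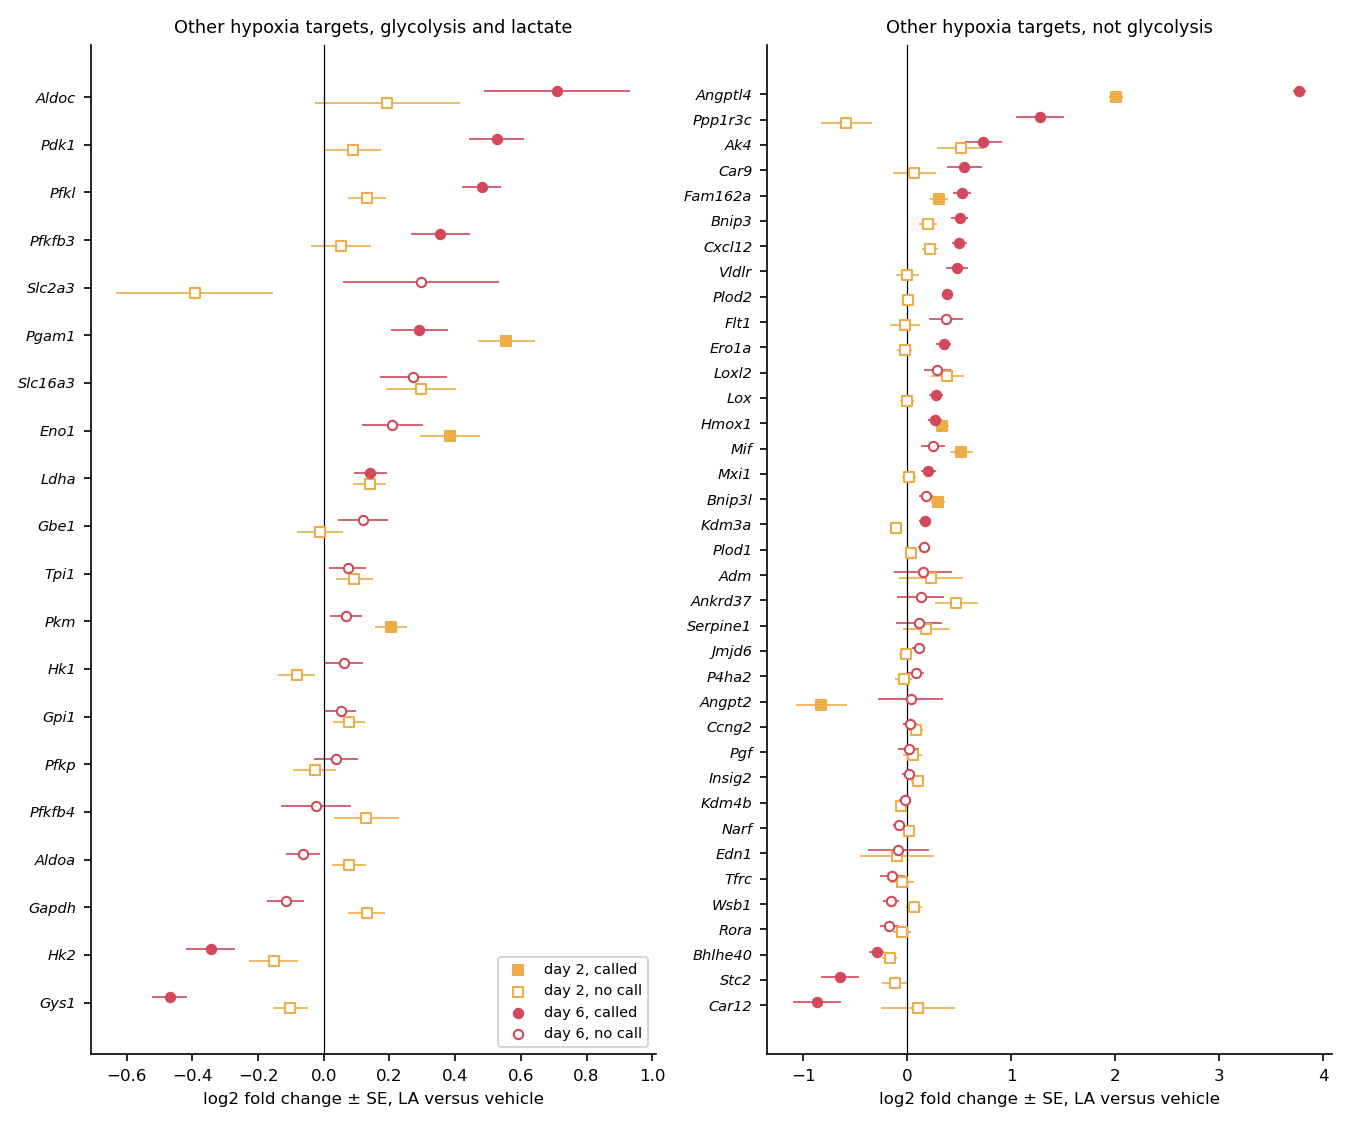
Log2 fold change ± SE of LA against vehicle at day 2 (squares) and day 6 (circles) for 20 glycolysis and lactate targets and 37 other targets (rows), filled where adjusted p was below 0.05. At day 6, 14 of the 37 circles are filled above 0 and 3 below, with Angptl4 at 3.77.

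Among 21 tested relatives and partners of the members, 1 rose and 2 fell with LA at day 2 (14.3%, beside 15.1% of all genes), and 5 rose and 3 fell at day 6 (38.1%, beside 17.2%). The day 2 count was 1 without day 2 LA replicate 3 or day 2 vehicle replicate 4, and with the compared groups alone. Vegfd, a vessel and lymph growth factor, rose from 5.79 to 9.57 CPM at day 6 (log2FC 0.72, adjusted p = 2.82e-04) and the receptor gene Nrp2 rose as well (0.30), while Vegfa was not called. Tsc2, through which REDD1 acts on mTORC1, fell slightly (-0.16). In vehicle Ddit4l, the relative of Ddit4 that is abundant in muscle, rose with time from 7.14 to 23.5 CPM (log2FC 1.72). ANGPTL4 at day 6 called 0 genes of all 4 lists (94 tested genes), beside 0.0231% of all genes. At day 2 it called 3 higher and 3 lower, beside 9.82% of all genes. Of those 94 genes, 12 rose and 4 fell with LA at day 2, beside 15.1% of all genes called. At day 6, 26 rose and 9 fell, beside 17.2%.

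The genes most like each member were found by Pearson correlation of log2 CPM over the 24 libraries among 10263 genes, which describes shared differences of day, treatment and library composition. Ndrg1 was most like Pros1 (r = 0.955) and Plscr4 (0.953), and Egln1 most like Nucb2 (0.943) and Cast (0.940). Higd1a was nearest to Sec61g (0.907) and Dynll2 (0.897), and Ddit4 to Snrpb (0.856) and Dynll2 (0.853). For P4ha1 they were Gpc6 (0.887) and Col3a1 (0.878), the latter a fibrillar collagen gene. Pgk1 was nearest to Bnip3l (0.885) and Hadhb (0.878), Egln3 to Wsb2 (0.883) and Fem1a (0.860), and Hif1a to Oxr1 (0.838) and Tlr4 (0.835). Slc2a1 (Zmiz2, 0.744, and Xkr8, 0.721) and Vegfa (Trim41, 0.697, and Slc16a3, 0.670) had the lowest values of nearest genes among the 10 members.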

How the data were processed

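RNA of C2C12 cells in 6 groups of 4 libraries was sequenced from transcript ends with a QuantSeq 3′ kit, per the labels. The authors deposited unnormalized read counts by gene symbol, filtered by a rule not given in the sources used here. The submitters' processing notes name HTSeq 0.9.1, STAR 2.7.1a, DESeq, DESeq2, Trimmomatic and build mm39, without settings. edgeR 4.0.16 in R 4.3.3 was used for filterByExpr, TMM scaling and a robust quasi-likelihood fit of group means over all 24 libraries (18 residual degrees of freedom, biological coefficient of variation 6.51%), with Benjamini-Hochberg adjustment over 12994 genes (1699 of 14693 were removed) and a threshold of 0.05. SE is the log2 fold change over the root of F. CPM used TMM-scaled totals, and log2 CPM a prior count of 2. Group totals were 9.85 to 14.5, 9.55 to 25.05 and 13.2 to 20.6 M counts at day 2 for vehicle, LA and ANGPTL4, and 9.85 to 12.6, 8.19 to 15.2 and 6.101 to 9.07 M at day 6, which gave each member at least 105 counts per library. The members, lists, tests and alternatives were chosen with earlier results of these data known. All members are named in each comparison, and of each list up to 3 called genes with the largest rise and 3 with the largest fall at a mean of at least 5 CPM in the higher group. The fit was tested on simulated data. Alternatives were DESeq2 size factors, library totals, no filter, 5 CPM in at least 4 libraries, limma-voom (limma 3.58.1), DESeq2 1.42.0, the compared groups alone, thinning to the smallest total, a replicate block, each library left out, and leaving out day 2 LA replicate 3 and day 6 ANGPTL4 replicate 1, which stood apart in earlier results. Thinning used a single random draw, so values after thinning also carry the noise of that draw.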

Additional observations from a re-analysis of the deposited data

Results flagged for a closer look

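Each of the 10 members was checked in each of the 6 groups. In 4 of these 60 checks 1 library stood far from the other 3, where chance gives about 1 in 20. The checks share the same 24 libraries and are not independent. Hif1a was at 254 CPM in day 2 LA replicate 4, with the others at 234 to 236 CPM. In the same library Ddit4 was at 22.1 CPM, with the others at 28.2 to 29.4 CPM. P4ha1 was at 333 CPM in day 2 vehicle replicate 2 (others 314 to 315 CPM), and Higd1a at 23.2 CPM in day 2 ANGPTL4 replicate 4 (others 20.04 to 20.4 CPM).

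The effect of LA differed between day 6 and day 2 in an interaction test (edgeR, adjusted p below 0.05) for 6 of 10 members, beside 19.7% of all genes. The difference, day 6 minus day 2 on the log2 scale, was 0.35 for Hif1a, 0.26 for Egln1, 0.30 for Ndrg1, 0.32 for P4ha1, -0.66 for Ddit4 and -0.69 for Higd1a.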

How the results depend on the processing

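Of 1780 values of members under alternatives, 1637 kept their sign and their side of the threshold, 49 lost a call, 21 gained one and 73 changed sign, none of these last called before or after. Of 23 member calls, 11 held under all their alternatives: Ddit4 and Higd1a with LA at day 2, Hif1a and P4ha1 with LA at day 6, P4ha1 for LA against ANGPTL4 at day 6, Egln3 and Ndrg1 with time in vehicle, and Hif1a, Higd1a, Ndrg1 and P4ha1 for the change of the LA effect. The number of members called moved from 0 to 1 with DESeq2 for the change of the ANGPTL4 effect and with limma-voom for ANGPTL4 at day 2. For LA against ANGPTL4 at day 2 it moved from 0 to 1 with DESeq2, with limma-voom and without the 2 libraries apart, and at day 6 from 3 to 5 with the compared groups alone; the cause was not tested. With single libraries left out it ranged from 0 to 1 for ANGPTL4 at day 2 and for the change of its effect, 0 to 2 and 1 to 3 for LA against ANGPTL4 at day 2 and day 6, 2 to 4 and 3 to 4 for LA at day 2 and day 6, 4 to 7 for time in vehicle and 6 to 6 for the change of the LA effect. Over all genes the count for ANGPTL4 at day 6 was 3, from 0 with the replicate block and after thinning to 83 with the compared groups alone, 47 with DESeq2, and 0 to 7 with single libraries left out. For LA at day 2 it was 1961, and 422 with those groups alone, 1264 after thinning, 632 without day 2 LA replicate 3, 1109 without day 2 vehicle replicate 4 and 590 without the 2 libraries apart. For ANGPTL4 at day 2 it was 1276, and 685 with the compared groups alone, 713 after thinning, 712 without day 2 vehicle replicate 4 and 821 without day 2 ANGPTL4 replicate 4. For LA against ANGPTL4 at day 2 it was 12, and 6 with the compared groups alone, 32 with DESeq2, 30 with limma-voom, 236 without the 2 libraries apart and 6 to 363 with single libraries left out. For the change of the ANGPTL4 effect it was 36, from 0 with the replicate block to 341 with DESeq2, and 0 to 312 with single libraries left out.

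The replicate block changed 0 of 90 calls (23 with and 23 without it). The numbers do not pair the libraries: over 60 pairs of same-numbered libraries the correlation of deviations ran from -0.309 to 0.303 (median 0.0088, above 0.1 in 8), and a library matched its own number best in 27 of 120 cases.

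Sign changes were all in values near 0, the furthest before the change being -0.077 for Egln3 (ANGPTL4 effect day 6 minus day 2). After the change the values were at most 0.073 in size on the log2 scale. With DESeq2 size factors such values were -0.0051 for Ndrg1 (ANGPTL4 versus vehicle day 2), -0.020 for Slc2a1 (vehicle day 6 versus day 2), 0.0071 for Vegfa (ANGPTL4 effect day 6 minus day 2). With DESeq2 such values were -0.0051 for Ndrg1 (ANGPTL4 versus vehicle day 2), -0.021 for Slc2a1 (vehicle day 6 versus day 2), 0.0067 for Vegfa (ANGPTL4 effect day 6 minus day 2). With the filter of 5 CPM such values were -0.0086 for Ndrg1 (ANGPTL4 versus vehicle day 2), -0.00050 for Pgk1 (ANGPTL4 versus vehicle day 6), -0.018 for Slc2a1 (vehicle day 6 versus day 2), 0.0049 for Vegfa (ANGPTL4 effect day 6 minus day 2). With library totals such values were 0.014 for Egln1 (ANGPTL4 versus vehicle day 2), 0.021 for Hif1a (ANGPTL4 versus vehicle day 2), -0.0058 for Pgk1 (ANGPTL4 versus vehicle day 6), -0.033 for Slc2a1 (vehicle day 6 versus day 2), 0.0064 for Vegfa (ANGPTL4 versus vehicle day 2). With limma-voom such values were -0.00065 for Slc2a1 (LA versus ANGPTL4 day 6). With no filter such values were -0.0046 for Slc2a1 (vehicle day 6 versus day 2). With the compared groups alone such values were -0.0055 for Ndrg1 (ANGPTL4 versus vehicle day 2), -0.022 for Slc2a1 (vehicle day 6 versus day 2), 0.0014 for Vegfa (ANGPTL4 effect day 6 minus day 2). With the replicate block such values were -0.0018 for Pgk1 (ANGPTL4 versus vehicle day 6). With thinning such values were 0.0024 for Egln1 (ANGPTL4 versus vehicle day 2), -0.0045 for Higd1a (LA versus ANGPTL4 day 6), -0.054 for Ndrg1 (ANGPTL4 versus vehicle day 2), -0.014 for Pgk1 (ANGPTL4 versus vehicle day 6), -0.025 for Slc2a1 (LA versus ANGPTL4 day 6), 0.0027 for Vegfa (ANGPTL4 effect day 6 minus day 2). With the 2 libraries apart left out such values were 0.043 for Egln3 (ANGPTL4 versus vehicle day 6), 0.011 for P4ha1 (ANGPTL4 versus vehicle day 6), -0.052 for Slc2a1 (LA versus ANGPTL4 day 6), -0.0096 for Slc2a1 (vehicle day 6 versus day 2). With single libraries left out, the values of members with any change of sign, those that kept it included, ranged from -0.081 to 0.019 for Egln1 (ANGPTL4 versus vehicle day 2), -0.13 to 0.020 for Egln3 (ANGPTL4 effect day 6 minus day 2), -0.063 to 0.067 for Egln3 (ANGPTL4 versus vehicle day 6), -0.070 to 0.0024 for Egln3 (LA versus vehicle day 2), -0.039 to 0.037 for Hif1a (ANGPTL4 versus vehicle day 2), -0.018 to 0.049 for Ndrg1 (ANGPTL4 versus vehicle day 2), -0.072 to 0.00041 for P4ha1 (ANGPTL4 effect day 6 minus day 2), -0.024 to 0.044 for P4ha1 (ANGPTL4 versus vehicle day 2), -0.042 to 0.014 for P4ha1 (ANGPTL4 versus vehicle day 6), -0.047 to 0.054 for Pgk1 (ANGPTL4 versus vehicle day 6), -0.059 to 0.074 for Slc2a1 (LA versus ANGPTL4 day 6), -0.048 to 0.044 for Slc2a1 (vehicle day 6 versus day 2), -0.044 to 0.073 for Vegfa (ANGPTL4 effect day 6 minus day 2), -0.051 to 0.0060 for Vegfa (ANGPTL4 versus vehicle day 2), -0.059 to 0.043 for Vegfa (ANGPTL4 versus vehicle day 6), -0.057 to 0.067 for Vegfa (LA effect day 6 minus day 2). Members at about 20 CPM (Ddit4 and Higd1a) have the fewest counts and are limited by depth more than the others, with as few as 105 counts in a library.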
